A study of Mus musculus with 14 samples.

Results

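Prostaglandin synthesis and signalling was followed through 8 genes in *p65*(-/-) mouse embryonic fibroblasts (MEFs) that had been complemented with different forms of p65. The genes were *Pla2g4a*, *Ptgs1*, *Ptgs2*, *Ptges*, *Ptgis*, *Ptgfr*, *Ptger2* and *Ptger4*. They were chosen by name, as every non-control probe that the array files assign to one of these symbols, and this gave 12 probes of the 41174 on the array (8 of 27962 gene names). To be tested, a probe had to exceed its background clearly (the scanner software's own flag) on all arrays of 1 or more groups. Of the members 10 of the 12 probes and 7 of the 8 genes did so, and of all probes 22172.

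All cells were p65(-/-) MEFs that had received a lentiviral vector with blasticidin selection, so each line was a selected pool of infected cells. The wild type line carried myc-tagged p65, K314/315R carried p65 with these 2 lysines changed to arginine, KTR carried the same changes and also K310 changed to arginine, and pTV carried the empty vector. The introduced p65 was expressed from the vector, not from its own gene. Cells were serum-starved overnight. Wild type, KTR and pTV cells were measured on 3 arrays each after 3 h with 30 ng/ml of mouse TNFα, K314/315R cells on 2 arrays after the same treatment, and wild type cells also on 3 arrays without TNFα (0 h). There was no 0 h array of KTR, K314/315R or pTV, so the response to TNFα itself was measured in wild type cells alone, and the lines are compared by their levels at 3 h.

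Prostaglandins are made by a chain of enzymes. Cytosolic phospholipase A2 (*Pla2g4a*) frees arachidonic acid from membranes, a cyclooxygenase (the constitutive *Ptgs1* or the inducible *Ptgs2*, also known as COX-2) turns it into prostaglandin H2, and a terminal synthase makes the final product. Microsomal prostaglandin E synthase (*Ptges*) gives prostaglandin E2 and prostacyclin synthase (*Ptgis*) gives prostacyclin. The products leave the cell and act on receptors at the surface, of which *Ptger2* and *Ptger4* bind prostaglandin E2 and *Ptgfr* binds prostaglandin F2α. Fibroblasts are a well known source of prostaglandin E2 under inflammatory cytokines, and *Ptgs2* is a classical gene induced by TNFα through NF-κB, of which p65 is a subunit.

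The bases before the transcription starts of *Ptgs2*, *Ptges* and *Ptgfr* are shown because these are the genes on which the differences below turn. They were taken from RefSeq (build GRCm38.p6), which held a promoter of 7 of the 8 genes and none for *Ptgis*. Capitals mark matches, on either strand, to the GC box (GGGCGG) and to the C/EBP-type motif TTNNGNAA, and each stretch is written 5′ to 3′ on the strand of its gene and ends at the base before the start.

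*Ptgs2*, chr1:150099781-150100030, plus strand: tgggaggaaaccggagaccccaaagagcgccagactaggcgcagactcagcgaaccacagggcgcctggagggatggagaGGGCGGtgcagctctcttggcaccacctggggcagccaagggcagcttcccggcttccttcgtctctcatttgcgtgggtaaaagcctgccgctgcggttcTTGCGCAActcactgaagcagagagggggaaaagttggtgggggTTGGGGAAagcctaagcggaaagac
*Ptges*, chr2:30903298-30903547, minus strand: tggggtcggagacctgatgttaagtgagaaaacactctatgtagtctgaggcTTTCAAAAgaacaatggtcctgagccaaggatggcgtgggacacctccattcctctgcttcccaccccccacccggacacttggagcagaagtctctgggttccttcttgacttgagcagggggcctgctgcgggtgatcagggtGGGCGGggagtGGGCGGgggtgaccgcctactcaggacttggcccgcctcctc
*Ptgfr*, chr3:151837529-151837778, minus strand: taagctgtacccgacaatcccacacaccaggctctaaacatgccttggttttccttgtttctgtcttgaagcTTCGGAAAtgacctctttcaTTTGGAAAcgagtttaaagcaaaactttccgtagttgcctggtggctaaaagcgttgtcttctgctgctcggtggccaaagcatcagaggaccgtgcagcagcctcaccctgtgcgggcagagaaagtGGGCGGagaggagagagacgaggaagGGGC

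The GC box at the end of the *Ptgfr* stretch runs on past the start. In *Ptgs2* the C/EBP-type motif began at −69 and −25 and the GC box at −170. In *Ptges* GC boxes began at −53 and −42 and the C/EBP-type motif at −198, and in *Ptgfr* they began at −30 and −4 and at −178 and −158. Just after its start *Ptgs2* also holds an E-box (CACGTG, from position 17) that overlaps the short CRE motif (TGACG, here on the minus strand, from position 14), and none of the other 7 windows holds an E-box.

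*Ptgs2*, chr1:150100037-150100060, plus strand: accactaCGTCACGTGgagtccgc

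Of all 32851 promoter windows of the same length (250 bases before and 50 after the start), 35.7% held a GC box, 40.7% the C/EBP-type motif, 7.15% the E-box and 20.8% the short CRE motif. The GC box was in the windows of 4 of the 7 members and the C/EBP-type motif in those of 5. No member window held a match to the κB consensus, which 8.46% of all windows held, or to the AP-1 motif TGAGTCA, which 5.2% held. That says only that these letters are not in these 300 bases, since sites further away were not searched. The matches are letters in a sequence and were not measured as binding sites.

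The signal of a probe is given as log2 of its processed intensity over the 75th percentile of its array, so a value of 0 is the level that 3 in 4 probes lie below. Levels of different probes are not comparable with each other. A difference is the mean log2 signal of 1 group minus that of another, with its standard error (SE), and all tests are limma's, with p-values adjusted by Benjamini-Hochberg across every probe tested. A difference was called at an adjusted p under 0.05 together with a fold over 2 against pTV, or over 1.8 in the other comparisons. The replicates were isolated on different days. Replicates 1, 2 and 3 of wild type, KTR and pTV lay on slides 1, 2 and 3, but both K314/315R arrays lay on slide 4, so for K314/315R the line and the slide cannot be told apart. Every K314/315R value below carries that limit. Where 1 K314/315R array is left out, 1 remains, so the spread in that fit comes from the other groups. In these bulk samples fewer cells that express a gene and less RNA per cell cannot be told apart.

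The plot of all 12 probes by array gives the measurements on which the following rests.

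**Figure D1:**
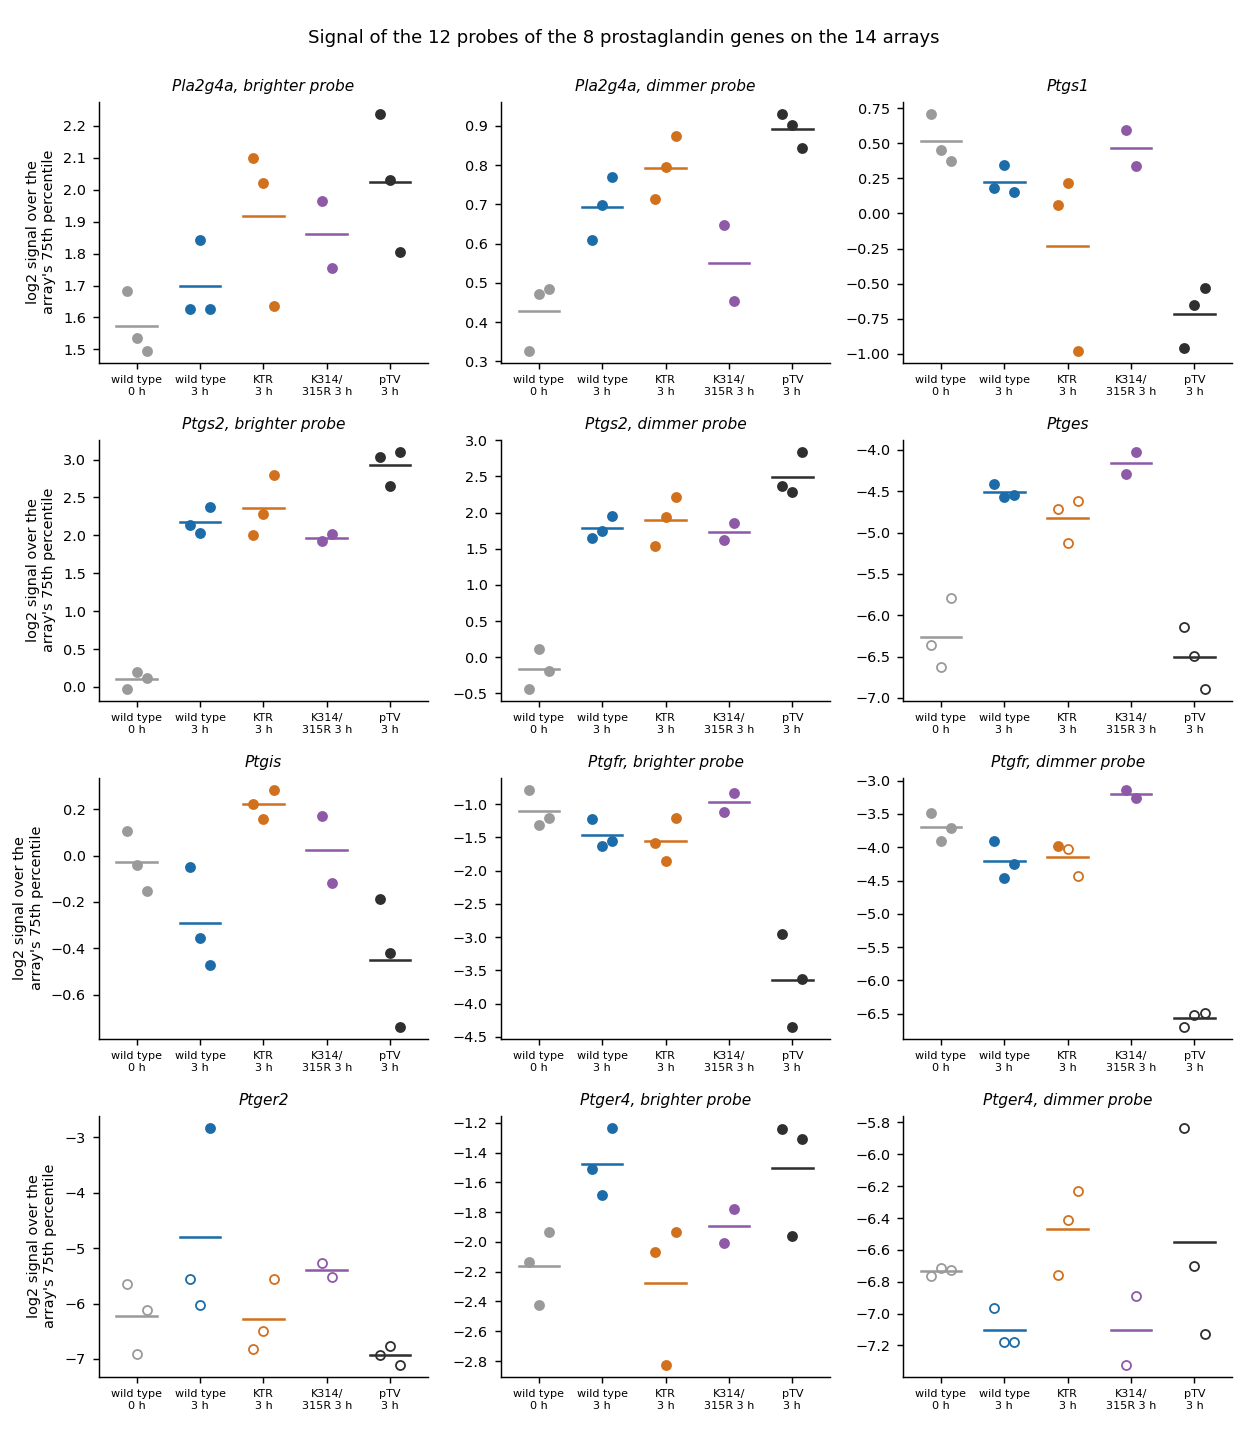
Log2 signal over the array's 75th percentile (y axis, a separate scale in each panel) for each of the 12 probes in the 5 groups (x axis). Points are arrays, open points were not well above background, and lines are group means. *Ptgs2* is low in the 3 unstimulated wild type arrays and highest in pTV, *Ptgfr* is lowest in pTV, and *Ptges* is measurable in wild type and K314/315R at 3 h only.

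*Pla2g4a*, the phospholipase at the head of the pathway, was called in no comparison. At its brighter probe *Pla2g4a* had log2 signals of 1.68, 1.54 and 1.50 in unstimulated wild type cells and of 1.63, 1.84 and 1.63 after TNFα. KTR cells had 2.10, 2.02 and 1.64, K314/315R cells 1.97 and 1.75, and pTV cells 2.24, 2.03 and 1.81. Each group overlapped its neighbour when the groups were ordered by mean. The same held at the second probe, where the group means ran from 0.43 in unstimulated wild type to 0.89 in pTV. The difference at the brighter probe was 0.13 (95% confidence interval −0.19 to 0.44) for TNFα in wild type cells and −0.33 (−0.64 to −0.01) for wild type over pTV. TNFα gave 0.26 (0.07 to 0.46, limma adjusted p = 0.133) at the second probe, without overlap of the wild type arrays with and without it. Over the alternatives that adjusted p ranged from 0.0433 to 0.366, and the rise was called in none. At the second probe K314/315R minus pTV was −0.34 (adjusted p = 0.0251), short of 2-fold.

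The inducible cyclooxygenase *Ptgs2* rose with TNFα, by more than any other member that was measured above background both with and without it. At the brighter of its probes the log2 signals were −0.02, 0.20 and 0.12 in unstimulated wild type cells. After 3 h of TNFα they were 2.14, 2.03 and 2.37, well clear of the unstimulated arrays. This was a rise of 2.08 ± 0.19 (SE, 3 arrays against 3; limma adjusted p = 8.25e-05), or 4.23-fold. The other probe, printed in 10 spots on each array, rose by 1.95 ± 0.20 (adjusted p = 0.000205), or 3.87-fold. Within slides 1, 2 and 3 the rise at the brighter probe was 2.16, 1.84 and 2.25.

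*Ptgs2* was not lower in pTV cells, which lack p65. In pTV cells the brighter probe had log2 signals of 3.04, 2.64 and 3.10, above each of the wild type arrays at 3 h. The difference, wild type minus pTV, was −0.75 ± 0.19 (adjusted p = 0.0172), and −0.71 ± 0.20 at the second probe (adjusted p = 0.0321), so the level in pTV was 1.68-fold and 1.64-fold that in wild type. Both passed the p threshold but not the required 2-fold, and both were negative within each slide (−0.90, −0.61 and −0.73 at the brighter probe). Leaving out wild type replicate 1 or 2, or pTV replicate 1 or 3, raised the adjusted p of the brighter probe to between 0.0579 and 0.0676. Leaving out wild type replicate 1 or 2 or pTV replicate 3 raised that of the second probe to between 0.086 and 0.124, and it was 0.0789 with no filter on dim probes. Since pTV cells were not measured at 0 h, their higher level at 3 h cannot be divided into a starting level and a response.

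The mutants of p65 did not shift *Ptgs2* detectably from wild type. KTR cells had 2.00, 2.28 and 2.80 and K314/315R cells 1.92 and 2.01 at the brighter probe. Both K314/315R arrays lay just below the wild type arrays. The KTR arrays overlapped them, and the difference was 0.18 with a 95% confidence interval of −0.23 to 0.59. For K314/315R it was −0.21 (−0.67 to 0.24). K314/315R minus pTV was −0.96 ± 0.21 (adjusted p = 0.00551) at the brighter and −0.76 ± 0.22 (adjusted p = 0.027) at the second probe, again short of 2-fold. The brighter probe passed 2-fold, and was then called lower, with quantile normalization (−1.04, adjusted p = 0.00383) and without pTV replicate 2 (−1.10, adjusted p = 0.00503). Without K314/315R replicate 2, which leaves 1 array of that line, the difference was −1.01. KTR minus pTV was −0.57 (adjusted p = 0.0616) and −0.60 (adjusted p = 0.0664).

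The constitutive cyclooxygenase *Ptgs1* ran the other way between wild type and pTV. Its log2 signals were 0.71, 0.45 and 0.38 in unstimulated wild type cells, 0.18, 0.35 and 0.15 after TNFα, and −0.96, −0.65 and −0.53 in pTV. All wild type arrays lay above all pTV arrays. Wild type minus pTV at 3 h was 0.94 ± 0.25 (adjusted p = 0.0253), or 1.92-fold, just under the 2-fold required, with 1.14, 1.00 and 0.68 within slides 1 to 3. Leaving out any 1 wild type array, or pTV replicate 1 or 2, raised the adjusted p to between 0.0568 and 0.0877, while leaving out pTV replicate 3 gave 1.03 and a called difference (adjusted p = 0.0399). Testing dim probes too gave an adjusted p of 0.0628. K314/315R cells (0.59 and 0.34) were higher than pTV by 1.18 ± 0.28 (adjusted p = 0.00946; 2.26-fold), which was called. Without K314/315R replicate 1 the adjusted p was 0.0685. In KTR cells the arrays disagreed, with 0.06 and 0.22 near wild type and −0.98 on replicate 3, as low as the lowest pTV array, and KTR minus pTV was 0.48 (95% confidence interval −0.07 to 1.03). TNFα minus unstimulated was −0.29 (−0.84 to 0.26) in wild type cells.

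The plot of differences sets the members side by side.

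**Figure D2:**
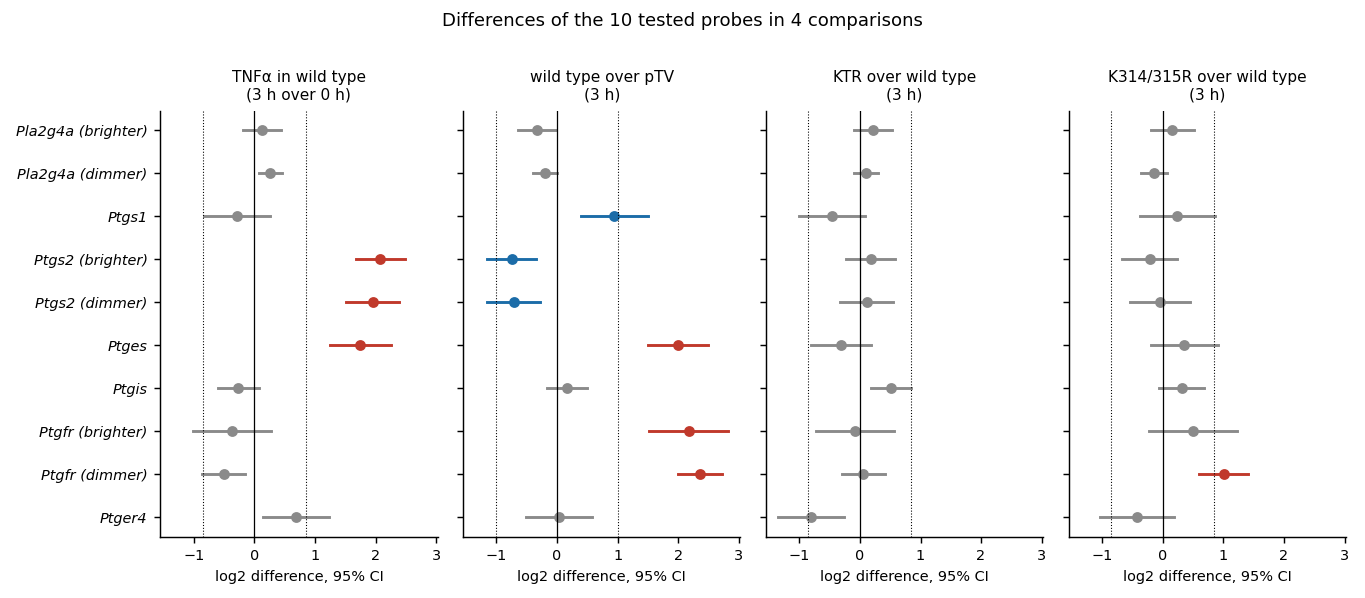
Log2 difference with its 95% confidence interval (x axis) for the 10 tested probes (y axis) in 4 comparisons, 1 per panel. Red marks called differences, blue an adjusted p under 0.05 without the required fold (dotted lines), and grey the rest. The *Ptgs2* probes lie far right for TNFα and left of 0 for wild type over pTV, and the KTR panel has no called member.

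Of the terminal synthases, *Ptges* was near the detection limit. It was well above background on 3 of 3 wild type arrays at 3 h (log2 signals −4.42, −4.58 and −4.54) and on 2 of 2 K314/315R arrays (−4.29 and −4.02). It was not well above background on any KTR (−4.72, −5.12 and −4.61), pTV (−6.14, −6.49 and −6.89) or unstimulated wild type array (−6.37, −6.63 and −5.79). The unstimulated and pTV arrays overlapped each other and lay below all the others.

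Where a group was not measured above background only a lower bound of the fold can be given. It sets the mean of the brighter group against the lowest signal measured well above background on the arrays of the dimmer group, or the probe's own signal where that is higher. The adjusted p beside a bound, here and below, tests the measured difference, signals below background included, and not the bound itself. *Ptges* was at least 1.08-fold higher with TNFα than without in wild type cells (adjusted p = 0.00099). Against pTV it was at least 1.19-fold higher in wild type (adjusted p = 6.41e-05) and at least 1.52-fold higher in K314/315R (adjusted p = 4.89e-05). KTR was also called higher than pTV (adjusted p = 0.000297), with no fold, since neither group was above background. The measured means differed by 1.75 for TNFα and by 1.99 for wild type over pTV, so most of each measured difference lay below the limit set by background. With normexp background correction, whose offset draws dim signals together, the values were 0.37 (adjusted p = 0.0859) and 0.52 (adjusted p = 0.00496), and *Ptges* was called in no comparison.

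*Ptgis* was bright on all 14 arrays and moved little. Its log2 signals were 0.11, −0.04 and −0.15 in unstimulated wild type cells and −0.05, −0.36 and −0.47 after TNFα, which overlapped. KTR cells had 0.22, 0.16 and 0.28, above all wild type arrays at 3 h and all pTV arrays (−0.19, −0.42 and −0.74). KTR minus pTV was 0.67 ± 0.15 (adjusted p = 0.0104), or 1.59-fold, below the 2-fold required. KTR minus wild type was 0.51 (95% confidence interval 0.18 to 0.84), which did not pass the threshold (adjusted p = 0.271; 0.0441 with no filter on dim probes, also below 1.8-fold). K314/315R cells, at 0.17 and −0.12, overlapped both KTR and wild type.

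Among the receptors *Ptgfr* stood out in pTV. At its brighter probe the log2 signals were −0.78, −1.32 and −1.20 in unstimulated wild type cells, −1.23, −1.63 and −1.56 after TNFα, −1.59, −1.86 and −1.20 in KTR and −1.11 and −0.84 in K314/315R. In pTV cells they were −2.95, −4.35 and −3.62, below every array of the other groups. Wild type exceeded pTV by 2.17 ± 0.30 (adjusted p = 0.000288), or 4.50-fold, with 1.72, 2.72 and 2.07 within slides 1 to 3. KTR exceeded pTV by 2.09 ± 0.30 (adjusted p = 0.000442; 4.26-fold) and K314/315R by 2.66 ± 0.33 (adjusted p = 0.000144; 6.34-fold). With normexp these became 1.49, 1.50 and 1.99, all still called. TNFα itself gave −0.37 (95% confidence interval −1.02 to 0.28) in wild type cells. The second probe gave −0.50 for TNFα (−0.86 to −0.15, limma adjusted p = 0.12), without overlap of the arrays. Its adjusted p ranged from 0.0463 to 0.371 over the alternatives, and it was called in none.

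The second *Ptgfr* probe was dim, and pTV was not well above background on any of its 3 arrays (−6.70, −6.51 and −6.48). Compared with pTV it was at least 1.47-fold higher in wild type (adjusted p = 1.14e-06), at least 1.53-fold higher in KTR (adjusted p = 1.28e-06; 1 of 3 KTR arrays above background) and at least 2.96-fold higher in K314/315R (adjusted p = 2.12e-07). With normexp the log2 difference from pTV fell to 0.67 in wild type and 0.58 in KTR, neither of them called, and to 1.26 in K314/315R, still called. This probe also separated the mutants. K314/315R cells had −3.14 and −3.26, against −3.91, −4.46 and −4.25 in wild type and −3.98, −4.02 and −4.43 in KTR. K314/315R was higher than wild type by 1.01 ± 0.18 (adjusted p = 0.0236; 2.01-fold) and higher than KTR by 0.95 ± 0.18 (adjusted p = 0.0163; 1.93-fold). The brighter probe gave 0.50 (95% confidence interval −0.23 to 1.22) and 0.57 (−0.15 to 1.30) for the same comparisons, so the 2 probes of *Ptgfr* share a direction but only the dim one was called. The call over wild type held in 5 of 13 alternatives and that over KTR in 7 of 13. With normexp the differences were 0.60 and 0.68, not called. With slide as random effect the adjusted p was 0.0762 over wild type and 0.0592 over KTR, and with only the arrays of the 2 groups 0.0803 and 0.112. Testing dim probes too gave 0.0675 over wild type. Leaving out either K314/315R array, or wild type replicate 2 or 3, also ended the call over wild type (adjusted p from 0.0538 to 0.112). Leaving out either K314/315R array or KTR replicate 3 ended that over KTR, the last through the fold (adjusted p from 0.0369 to 0.0862).

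Of the receptors for prostaglandin E2, *Ptger4* was measured on all 14 arrays at its brighter probe. Its log2 signals were −2.14, −2.42 and −1.93 in unstimulated wild type cells and −1.51, −1.68 and −1.23 after TNFα, without overlap. The difference of 0.69 ± 0.25 did not pass the threshold (adjusted p = 0.165), although it was 0.63, 0.74 and 0.70 within slides 1, 2 and 3. The adjusted p was 0.0268 with the replicate block and 0.0189 with slide as random effect, and the 1.61-fold difference stayed below the 1.8-fold required in each. KTR cells, with −2.06, −2.82 and −1.93, lay below all wild type arrays at 3 h and overlapped the unstimulated cells. KTR minus wild type was −0.80 ± 0.25 (adjusted p = 0.305; 0.0552 with the replicate block and 0.0376 with slide as random effect), with −0.56, −1.14 and −0.70 within the slides. The level in wild type was 1.74-fold that in KTR, below 1.8-fold. K314/315R cells had −2.01 and −1.78 and pTV cells −1.24, −1.96 and −1.31, and wild type minus pTV was 0.03 (95% confidence interval −0.52 to 0.57). KTR minus pTV was −0.77 (adjusted p = 0.0581), and without pTV replicate 2 it was called (adjusted p = 0.0244). The second *Ptger4* probe was not well above background on any array.

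*Ptger2* was not tested, since its only probe was well above background on 1 of 14 arrays. That array was wild type at 3 h, replicate 3, with −2.82. The other 2 arrays of that group had −5.56 and −6.03, and all remaining arrays lay between −7.10 and −5.26, so no comparison of *Ptger2* was possible.

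The plot of differences within slides shows which of these held on each slide.

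**Figure D3:**
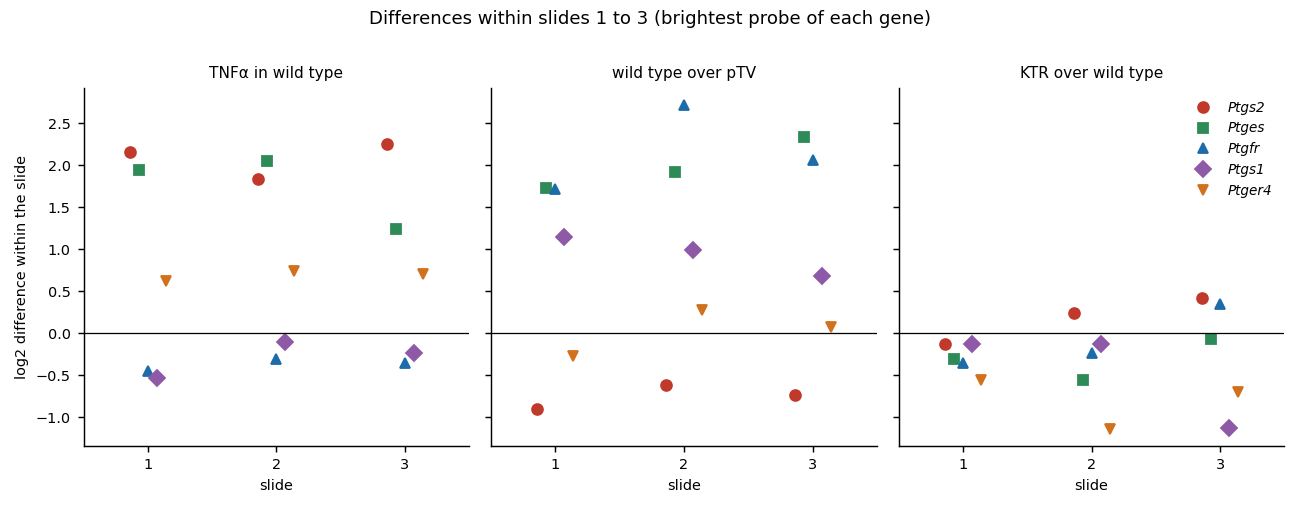
Log2 difference between the 2 arrays of each comparison that share a slide (y axis) on slides 1, 2 and 3 (x axis), for the brightest probe of 5 genes in 3 comparisons. *Ptgs2* rises by 1.84 to 2.25 with TNFα and is below 0 for wild type over pTV on every slide, *Ptger4* is below 0 for KTR over wild type on every slide, and *Ptges* values rest on arrays below background except wild type at 3 h.

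Counted over the 10 tested member probes, TNFα in wild type cells raised 3 (*Ptgs2* at both probes and *Ptges*) and lowered 0. *Ptges* passed the filter only through wild type and K314/315R at 3 h, and was above background on no unstimulated, KTR or pTV array. Its fold for TNFα and for each comparison with pTV therefore rests on signals below background. Of all tested probes 1.12% were called higher and 0.424% lower. Wild type over pTV called 3 higher (*Ptges* and *Ptgfr* at both probes) and 0 lower, beside 3.59% and 1.46% of all tested probes. KTR over pTV called the same 3 probes higher and 0 lower, of which *Ptges* was at background in both groups, where 3.32% and 1.36% of all were called. K314/315R over pTV called these and *Ptgs1*, 4 in all, and 0 lower, where 4.18% and 4.68% of all were called. These comparisons with pTV share its 3 arrays, and those with wild type share the 3 wild type arrays at 3 h.

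KTR over wild type called 0 member probes in either direction by limma, beside 0.0271% of all tested probes higher and 0.14% lower. At an unadjusted p under 0.05 there were 2 (*Ptgis* higher and *Ptger4* lower), neither of them past 1.8-fold. For all tested probes the share at that unadjusted p is not given. K314/315R over wild type called 1 higher (the dim *Ptgfr* probe) and 0 lower, beside 0.167% and 1.03%. K314/315R over KTR called that probe alone, beside 0.492% higher and 2.06% lower. The counts are small and several genes carry more than 1 probe. The members were chosen by function, but with earlier results of these data known. The counts are therefore read as a description and not as a test against the shares of all probes. The median difference of the 10 probes was 0.20 for TNFα, 0.09 for wild type over pTV, 0.08 for KTR over wild type and 0.20 for K314/315R over wild type, beside −0.04, −0.03, 0.06 and 0.02 over all tested probes.

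The rest of the eicosanoid pathway was read from a list of 57 further gene symbols (other phospholipases, terminal synthases, receptors, transport and breakdown, the lipoxygenase branch and regulators). The array carried 50 of them, and 24 could be tested, with 35 probes. Counted as genes, TNFα in wild type cells raised 2 and lowered 0, while the percentages that follow are shares of probes. Of all tested probes 1.12% and 0.424% were called in these directions. Wild type over pTV called 5 higher and 1 lower (3.59% and 1.46% of all), KTR over pTV 4 and 1 (3.32% and 1.36%), and K314/315R over pTV 3 and 2 (4.18% and 4.68%). Counted as probes, KTR over pTV had 5 higher and 1 lower. KTR over wild type, K314/315R over wild type and K314/315R over KTR called 0 by limma, with 5, 7 and 10 of the 35 probes at an unadjusted p under 0.05. The share of all tested probes at that unadjusted p is not given, so whether 5, 7 or 10 is many cannot be read. With the replicate block K314/315R over wild type and over KTR each called 1, *Alox12b*, lower (−0.91, adjusted p = 0.00368, and −0.93, adjusted p = 0.00197). That block pairs the K314/315R arrays of slide 4 with other slides by replicate number alone, a pairing that the correlations between arrays did not show.

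The largest of these differences was in *Slco2a1*, the prostaglandin transporter that takes prostaglandins back into cells. Its log2 signals were −2.03, −2.47 and −2.31 in unstimulated wild type cells and −1.01, −1.26 and −0.78 after TNFα, a rise of 1.25 ± 0.18 (adjusted p = 0.00217; 2.38-fold). KTR cells had −0.60, −0.51 and −0.83, K314/315R cells −1.16 and −0.72, and pTV cells −4.50, −4.87 and −4.29. Wild type exceeded pTV by 3.54 ± 0.18 (adjusted p = 1.02e-07), or 11.6-fold, and pTV, with 2 of 3 arrays well above background, lay below even the unstimulated wild type arrays. With normexp the log2 difference was 2.35, still called. The other tested *Slco2a1* probe did not show this: wild type minus pTV was −0.42 (adjusted p = 0.576) and TNFα gave 0.16 (adjusted p = 0.905).

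*Ptgir*, the prostacyclin receptor, behaved alike at one of its probes. TNFα raised it by 1.48 ± 0.16 in wild type cells (adjusted p = 0.000246; 2.79-fold), from −4.04, −4.37 and −4.48 to −2.65, −2.94 and −2.86, with 1 of 3 unstimulated arrays well above background. It was not above background on any pTV array (−5.95, −6.38 and −6.19), and was at least 3.84-fold higher in wild type (adjusted p = 4.25e-08), at least 3.15-fold in KTR (adjusted p = 1.03e-07) and at least 3.40-fold in K314/315R (adjusted p = 2.28e-07). At its other probe wild type minus pTV was −0.26 (adjusted p = 0.802). With normexp the differences at the first probe were 0.73 for TNFα, no longer past 1.8-fold, and 1.28 for wild type over pTV, still called. Which probe of *Slco2a1* or *Ptgir* reads the main transcript was not tested.

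*Akr1c18*, which reduces progesterone and also has prostaglandin F synthase activity, was the opposite case. It was well above background in pTV alone (−3.48, −2.81 and −3.13), so it entered the tests only through the group in which it was high. It was at least 3.45-fold lower in wild type (adjusted p = 1.11e-05), at least 2.21-fold lower in KTR (adjusted p = 3.26e-05) and at least 3.54-fold lower in K314/315R (adjusted p = 0.000995), and not above background on any of their arrays or on any unstimulated array. The measured log2 difference of wild type was −3.32, and −1.40 with normexp, still called. *Mgll*, monoacylglycerol lipase, which can supply arachidonic acid, was higher than in pTV by 1.43 ± 0.31 in wild type (adjusted p = 0.00791), 1.64 in KTR (adjusted p = 0.0035) and 1.44 in K314/315R (adjusted p = 0.0102) at 1 of its 2 tested probes, with 1 of 3 pTV arrays above background. Its other probe gave 0.91 for wild type (adjusted p = 0.149) and 1.12 for KTR (adjusted p = 0.069; 0.0115 with the replicate block, then called), and with normexp the first was called in no line (0.51 for wild type, adjusted p = 0.0761). The adjusted p was 0.0573 for wild type and also for K314/315R with only the arrays of the 2 groups, and 0.0689 for K314/315R without its replicate 1. *Pla2g2d*, a secreted phospholipase A2, was 1.26 ± 0.13 higher in wild type than in pTV (adjusted p = 2.12e-05; 2.39-fold), and 0.68 higher with normexp, short of 2-fold. *Alox12b*, an epidermal-type lipoxygenase, was lower in K314/315R than in pTV, with a log2 difference of −1.07 ± 0.29 (adjusted p = 0.0163), and its level of −3.68 on 1 of the 2 arrays and −3.07 on the other lay below all 12 other arrays. Without K314/315R replicate 1 it was −0.77 (adjusted p = 0.146), and without pTV replicate 2 or 3 the adjusted p was 0.0507 or 0.052. It was short of 2-fold with the replicate block (−0.96, adjusted p = 0.000228), quantile normalization (−0.88) and normexp (−0.70), so the call held in 8 of 14 alternatives. The replicate block again pairs K314/315R by number alone.

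*Abcc4*, an exporter of prostaglandin E2, is named because, unlike *Slco2a1* and *Ptgir*, its 2 probes gave near equal differences, and it was chosen after its values were seen. At the brighter probe the log2 signals were 0.24, 0.28 and 0.28 in pTV and 1.25, 1.25 and 1.18 in wild type at 3 h. Wild type minus pTV was 0.96 ± 0.08 (adjusted p = 4.69e-06) there, just short of 2-fold, and 1.04 ± 0.16 (adjusted p = 0.000579) at the dimmer probe, where it was called. Without wild type replicate 1 or pTV replicate 2 the dimmer probe was short of 2-fold as well (0.98 and 0.96), and with normexp it gave 0.55. KTR exceeded pTV by 1.02 at both.

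**Figure D4:**
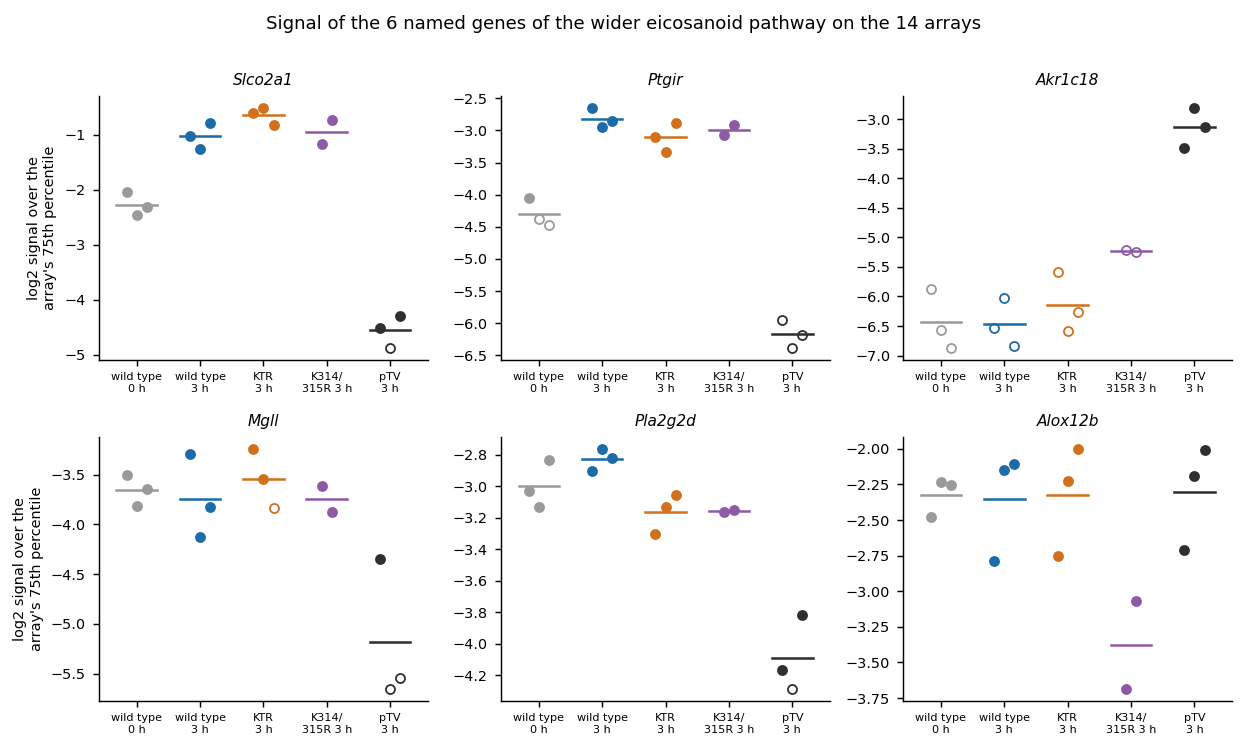
Log2 signal over the array's 75th percentile (y axis, a separate scale in each panel) of 6 further pathway genes in the 5 groups (x axis), at the probe with the called difference. Points are arrays, open points were not well above background, and lines are group means. *Slco2a1* and *Ptgir* are lowest in pTV and rise with TNFα in wild type cells, and *Akr1c18* is measured above background in pTV only.

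Across all 14 arrays the gene whose signal followed that of *Ptgs2* most closely was *Myc* (Pearson r = 0.975), then *Errfi1* (0.974). For *Ptgfr* they were *Pmp22* (0.975) and *Tbx6* (0.971), for *Ptgs1* *Tesk2* (0.924) and *Nuak2* (0.915), and for *Ptgis* *Coq4* (0.945) and *Mab21l2* (0.942). For *Pla2g4a* they were *Bbs5* (0.912) and *Nfxl1* (0.900), and for *Ptger4* *Plekhb2* and *Itgb3* (both 0.828). These are the highest of 12648 probes (12647 for *Ptgs2* and *Pla2g4a*), over arrays that fall into 5 groups and share slides, and are given as a description.

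The cells had the profile of fibroblasts. Of 9 fibroblast markers 8, such as *Col1a2* and *Vim*, were well above background on all arrays. Of 6 leukocyte markers *Ptprc*, *Itgam* and *Emr1* were not well above background on any array, while *Cd14* was on all 14, *Csf1r* on 13 and *Cd68* on 6. Of 4 epithelial markers on the array *Krt8* was on all 14, *Krt18* on 5 and the other 2 on none. All 4 endothelial markers and 2 of 3 mast cell markers were on none, and *Mcpt4* was on 1. The part of these markers in any result was not tested. *Rela*, the gene of p65, was read by mouse probes in every group, pTV included (mean 1.18 in pTV against 1.53 in wild type at 3 h at the brighter probe). Whether those probes read the introduced p65, or a part of the gene that the knockout removed, was not known here, so they do not check the labels. In each array 49.9% to 57.7% of spots were well above background, and no member spot was saturated.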

How the data were processed

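RNA of 14 samples was measured on one-colour Agilent Whole Mouse Genome arrays (Cy3), and all 14 were used. The authors deposited the scanner output of Agilent Feature Extraction, whose spots carry a background-corrected intensity not scaled between arrays, and a table of normalized intensities that equals the mean spot intensity times 1 factor per array (within 1% for at least 99.6% of probes). The deposited software flags (unit other) mark spots as well above background, outlying or saturated. The paper's analysis used Rosetta Resolver, which was not repeated here.

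Outlier spots (1 to 326 per array) were left out, spots of a probe averaged, and log2 intensities set relative to the 75th percentile of their array. Tests used limma 3.58.1 under R 4.3.3, with all arrays in 1 fit and two-sided p-values, and were checked on simulated data. The thresholds follow the ratios in the study's methods. The members and gene lists were chosen with earlier results of these data known. All members are named. Of the other pathway genes the 6 with the largest called fold are named. The 2 most correlated genes are named for each member except *Ptges* and *Ptger2*. Gene symbols were taken as the files give them.

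For pairing, deviations from group means were correlated between arrays. On slides 1 to 3 arrays with equal replicate number (18 pairs) had r of 0.308 to 0.613 and the 36 others −0.510 to 0.0954. The number equals the slide there and was taken to pair the arrays in the replicate block. The main tests compared group means without that pairing. With K314/315R on slide 4 (Feature Extraction 9.1.3.1 in place of 9.1.1.1) r was −0.101 to 0.411 in 8 pairs of equal number and −0.416 to 0.416 in the 16 others. These ranges overlap, so pairing by number was not shown for K314/315R, and its values with the replicate block rest on that pairing. Few arrays per group limit the precision, and p-values measure the spread between RNA isolated on different days from 1 selected pool per line. Alternatives are those of the closing section. Promoters came from the RefSeq table (GRCm38.p6) and figures from matplotlib.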

Additional observations from a re-analysis of the deposited data

Results flagged for a closer look

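The dim *Ptgfr* probe differed between the mutants. K314/315R over wild type exceeded KTR over wild type by 0.949 on the log2 scale (limma adjusted p = 0.0163 for K314/315R over KTR, which is the test of that difference). The brighter *Ptgfr* probe was not called in either comparison, and the call of K314/315R over KTR was lost in 6 of 13 alternatives, among them normexp (0.68), slide as random effect (adjusted p = 0.0592) and only the arrays of the 2 groups (adjusted p = 0.112). K314/315R lay alone on slide 4, so line and slide cannot be told apart.

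*Ptger2* carried a signal in data outside the tests. Its probe was well above background on wild type replicate 3 at 3 h alone, at −2.82, while the pTV arrays reached at most −6.78. With 1 array of 14 there is no replicate of it. No group was large enough for a test of single outlying arrays.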

How the results depend on the processing

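The member counts were 3 (TNFα in wild type), 3 (wild type over pTV), 0 (KTR over wild type), 1 (K314/315R over wild type), 3 (KTR over pTV), 4 (K314/315R over pTV) and 1 (K314/315R over KTR). With the replicate block they were 3, 3, 0, 1, 3, 4 and 1, so it changed no call of a member, and the deposited table, kept outlier spots and unadjusted p gave the same counts. Normexp correction (offset 50, local background capped at the 99.9th percentile of the array) gave 1 for wild type over pTV, 0 for K314/315R over wild type, 1 for KTR over pTV and 0 for K314/315R over KTR. Restricting the test to probes measured on all 14 arrays gave 1, 0, 1 and 0 for the same comparisons and 2 for K314/315R over pTV, since *Ptges* and the dim *Ptgfr* probe are then not tested. K314/315R over wild type gave 0 with no filter on dim probes, with slide as random effect and with only the arrays of the 2 groups. K314/315R over KTR gave 0 under the last pair and 2 with quantile normalization, where *Ptges* is added (0.94, adjusted p = 0.0429). Quantile normalization also gave 5 for K314/315R over pTV, with *Ptgs2* added as the 1 lower call. With no fold threshold wild type over pTV gave 6 and K314/315R over pTV 7. Leaving out 1 array gave 3 to 3 for TNFα, 3 to 4 for wild type over pTV, 0 to 0 for KTR over wild type, 0 to 1 for K314/315R over wild type, 3 to 4 for KTR over pTV, 3 to 5 for K314/315R over pTV and 0 to 1 for K314/315R over KTR. Other causes were not tested. No difference with an unadjusted p under 0.05 changed direction in any of these. Both *Ptgs2* probes were called for TNFα, and the brighter *Ptgfr* probe for wild type, KTR and K314/315R over pTV, under every alternative run. The same alternatives were run for the further pathway genes, a choice made after seeing the data. Their count ranged from 0 to 2 for TNFα, 0 to 6 for wild type over pTV, 1 to 6 for KTR over pTV, 1 to 7 for K314/315R over pTV, 0 to 0 for KTR over wild type and 0 to 1 for the other comparisons.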
